A study of Homo sapiens with 6 samples.

Results

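The SR protein and hnRNP genes were followed in A498 cells, a human line from a clear cell kidney carcinoma, after a knockdown of PTPRZ1, which encodes a receptor protein tyrosine phosphatase. Members were the protein-coding rows of the count table whose symbol starts with SRSF or HNRNP, which gave 12 SR protein genes and 27 hnRNP genes, 39 of 61860 rows in all. The 6 RNA sequencing libraries formed 2 groups of 3, the knockdown (PTPRZ-Si) and its control (PTPRZ-nc). The labels name siRNA for the knockdown group and a plasmid for the control group. A difference between the groups therefore cannot be told apart from this difference in how the cells were treated. Both groups were grown in MEM with fetal bovine serum. The series title places the phosphatase and the ubiquitin ligase RNF26 in the response of this cancer to kinase inhibitors and PD-1 blockade. Whether replicates came from separate cultures is not in the labels. The p-values thus reflect library-to-library spread alone, and that spread may be technical.

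SR proteins are RNA-binding splicing factors with a tail rich in arginine and serine repeats. Bound to enhancer sequences in exons, they recruit U2AF and the U1 snRNP and favour inclusion of the exon. Proteins of the heterogeneous nuclear ribonucleoprotein (hnRNP) families coat nascent transcripts, and several of them, hnRNP A1 above all, bind silencers and oppose SR proteins at nearby sites. Both families control their own mRNAs, in part through exons that carry an early stop codon and send the transcript to nonsense-mediated decay. Counts per gene report the level of the mRNA and not which exons it contains.

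The promoters of the 4 SR protein genes that passed the test, 3 lower and 1 higher in the knockdown, are printed here with that of HNRNPH3, the hnRNP gene with the smallest adjusted p. They come from RefSeq on GRCh38.p14, where 35 of 39 members were matched by symbol, all but HNRNPA1, HNRNPA1L3, HNRNPCL3 and SRSF2. Each window runs from 250 bases before to 50 bases after an annotated start, the one nearest the GENCODE 29 start of the gene where there are several, 5′ to 3′ on the strand of the gene. The windows are SRSF3 at chr6:36594112-36594411 on the plus strand, SRSF7 at chr2:38751445-38751744 on the minus strand, SRSF9 at chr12:120469699-120469998 on the minus strand, SRSF11 at chr1:70205446-70205745 on the plus strand and HNRNPH3 at chr10:68331443-68331742 on the plus strand. Capitals mark matches, on either strand, to 7 motifs that were searched: the TATA box TATAAA, the CCAAT box CCAAT, the GC box GGGCGG, the ETS core CCGGAAG, the NRF1 sequence GCATGCGC, the CRE TGACGTCA and the E-box CACGTG.
SRSF3: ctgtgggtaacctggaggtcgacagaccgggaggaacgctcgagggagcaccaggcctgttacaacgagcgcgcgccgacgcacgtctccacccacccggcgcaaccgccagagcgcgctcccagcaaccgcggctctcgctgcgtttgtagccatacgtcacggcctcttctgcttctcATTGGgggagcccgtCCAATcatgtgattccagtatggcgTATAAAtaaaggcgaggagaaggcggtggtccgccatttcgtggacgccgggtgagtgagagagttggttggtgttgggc
SRSF7: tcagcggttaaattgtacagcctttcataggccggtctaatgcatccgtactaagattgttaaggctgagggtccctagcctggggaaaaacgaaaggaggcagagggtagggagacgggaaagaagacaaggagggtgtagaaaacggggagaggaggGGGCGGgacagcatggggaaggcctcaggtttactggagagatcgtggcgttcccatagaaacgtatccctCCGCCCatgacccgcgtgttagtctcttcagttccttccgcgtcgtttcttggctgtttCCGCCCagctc
SRSF9: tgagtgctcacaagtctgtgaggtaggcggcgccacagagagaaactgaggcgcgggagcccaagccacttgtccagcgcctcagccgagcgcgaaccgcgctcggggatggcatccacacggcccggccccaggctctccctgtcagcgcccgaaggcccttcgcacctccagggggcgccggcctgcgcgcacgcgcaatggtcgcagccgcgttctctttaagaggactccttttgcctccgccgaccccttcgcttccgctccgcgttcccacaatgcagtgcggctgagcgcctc
SRSF11: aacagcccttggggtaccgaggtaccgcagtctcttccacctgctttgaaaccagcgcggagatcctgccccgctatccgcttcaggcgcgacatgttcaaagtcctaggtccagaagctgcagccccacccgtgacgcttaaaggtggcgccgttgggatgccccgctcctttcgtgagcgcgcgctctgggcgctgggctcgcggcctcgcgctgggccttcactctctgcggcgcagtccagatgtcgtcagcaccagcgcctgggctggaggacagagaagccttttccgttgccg
HNRNPH3: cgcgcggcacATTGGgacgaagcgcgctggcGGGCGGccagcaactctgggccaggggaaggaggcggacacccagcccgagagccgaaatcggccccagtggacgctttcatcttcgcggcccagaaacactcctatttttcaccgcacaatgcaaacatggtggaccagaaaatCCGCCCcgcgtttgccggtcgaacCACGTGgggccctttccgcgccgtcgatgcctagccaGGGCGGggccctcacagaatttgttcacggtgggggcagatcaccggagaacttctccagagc

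The SRSF3 window held a TATAAA that begins 30 bases before the start and CCAAT matches at 55 and 70 bases before it. The printed SRSF7 window held 3 GC boxes and no TATAAA, while the printed windows of SRSF9 and SRSF11 held none of the 7 motifs. A second SRSF7 window, at chr2:38751312-38751611, held TATAAA, a GC box and GCATGCGC, and a second SRSF11 window, at chr1:70221130-70221429, held TATAAA and a GC box. The printed HNRNPH3 window held a CACGTG at 50 bases before the start, 3 GC boxes and 1 CCAAT match, and of the other 2 windows of this gene 1 held a GC box and 1 held none of the motifs. Over the 49 windows of all members, which include several starts for some genes, 12.2% held TATAAA, against 11.5% of all 35116 windows in the table. CCAAT was in 51.0% of member windows and 34.6% of all windows, GGGCGG in 59.2% and 45.0%, CCGGAAG in 10.2% and 10.3%, and GCATGCGC in 6.12% and 3.05%. CACGTG was in 16.3% of member windows, 8 of them hnRNP windows and 0 SR windows, against 7.26% of all. TGACGTCA was in 0 member windows and 1.85% of all. Median GC content was 64.0% in member windows and 58.7% in all. A match describes these letters and is not a binding site.

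Total counts per library ran from 14407846 to 21469746 in the knockdown and from 13726908 to 18609477 in the control. PTPRZ1 itself had 0 counts in all 6 libraries, so the knockdown cannot be checked in these counts. RNF26 had 39.32, 38.79 and 45.19 CPM (counts of a gene relative to the scaled total of its library) in the knockdown libraries, against 49.71, 49.25 and 47.90 CPM in the control libraries, and was lower (log2 fold change -0.25, SE 0.07, edgeR adjusted p = 0.0128). For the markers that follow, CPM is relative to the unscaled total of a library. All 10 markers of kidney and clear cell carcinoma were counted, with a summed 3540 to 3670 CPM in the knockdown and 3460 to 3540 CPM in the control. KRT8 (1300 to 1320 CPM in the knockdown and 1170 to 1240 CPM in the control) and VIM made up most of it. CA9 was low, at 2.29 to 2.71 CPM in the knockdown and 2.69 to 3.57 CPM in the control. LHX1 was low too, at 0.763 to 1.21 CPM and 1.64 to 2.62 CPM. The sum covers moves in both directions: PAX8 had 530 to 577 CPM in the knockdown and 288 to 329 CPM in the control, CDH6 151 to 159 CPM and 65.6 to 82.7 CPM, and VIM 751 to 810 CPM and 1130 to 1230 CPM. Of markers of other cells, the 5 immune genes summed to 0.953 to 1.32 CPM in the knockdown and 0.591 to 0.878 CPM in the control, with PTPRC and CD3E at 0. The 4 endothelial genes summed to 1.39 to 1.62 CPM and 0.937 to 1.09 CPM, with CDH5 at 0. The 5 fibroblast genes summed to 21.9 to 24.3 CPM and 33.0 to 42.4 CPM, with LUM at 0. Their part in the results below was not tested. Genes were compared with the quasi-likelihood test of edgeR over all 15476 genes that passed a filter on low counts, and were called at a Benjamini-Hochberg adjusted p of at most 0.05. Of these, 27.4% were called, 14% higher and 13.4% lower in the knockdown, and for 40.8% no knockdown value fell within the control range or the reverse.

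Of the 39 members, 32 passed the filter, 11 SR protein genes and 21 hnRNP genes. A total of 7 were called (21.9%, beside the 27.4% of all genes), 3 higher and 4 lower. Among SR protein genes 1 was higher, 3 were lower and 7 did not pass, so 36.4% were called. Among hnRNP genes 2 were higher, 1 was lower and 18 did not pass, so 14.3% were called. With 4 and 3 calls these shares are descriptions, and no test of one family against the other was made. Groups were separate for 4 SR protein genes (36.4%) and 5 hnRNP genes (23.8%), beside the 40.8% of all genes, which is a description too. All changes were small: the called members differed by 1.11 to 1.24-fold either way, with a median of 1.16-fold, against a median of 1.26-fold for all called genes. In RNA from bulk cells, fewer cells that express a gene and less of its RNA per cell cannot be told apart.

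**Figure D1:**
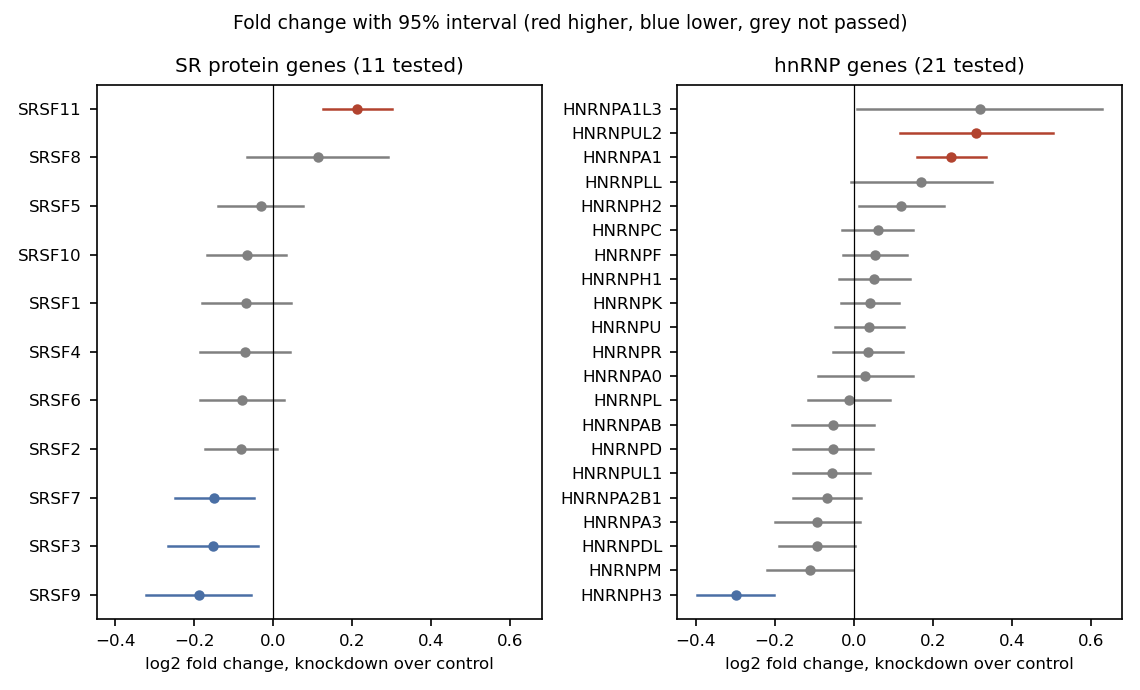
Log2 fold change of each tested member, knockdown over control, with its 95% interval from edgeR, for SR protein genes on the left and hnRNP genes on the right. SRSF11 (0.21), HNRNPA1 (0.25) and HNRNPUL2 (0.31) are called higher, and SRSF3, SRSF7, SRSF9 and HNRNPH3 (-0.30) lower; grey members did not pass.

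SRSF11, an SR-related protein also known as p54 that contacts the large subunit of U2AF, was the SR protein gene that rose (chr1:70205682-70253052 in GENCODE 29, GRCh38, plus strand). It had 242.9, 245.6 and 235.6 CPM in knockdown replicates 1, 2 and 3, against 208.4, 204.3 and 211.9 CPM in control replicates 1, 2 and 3. Every knockdown library lay above every control library. The log2 fold change was 0.21 (SE 0.04, edgeR adjusted p = 0.000862), and SRSF11 was called in all 6 fits that leave out 1 library. It has no counted copy under its name and shares no exon base with another gene.

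Of the SR protein genes that fell, SRSF3 encodes the smallest SR protein, which also takes part in mRNA export and 3′ end processing (chr6:36594353-36605600, plus strand). Its level was 237.1, 237.9 and 225.0 CPM in the knockdown libraries, against 247.1, 285.5 and 246.0 CPM in the control libraries. All knockdown values lay below all controls, and control 2 stood far above the other controls. On the log2 scale the change was -0.15 (SE 0.05, edgeR adjusted p = 0.0432). It was not called without control 2, where the log2 fold change was -0.08 (edgeR adjusted p = 0.123), nor without any single knockdown library (edgeR adjusted p = 0.0647 to 0.176).

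SRSF7, an SR protein with a zinc knuckle that likewise serves in mRNA export (chr2:38743599-38751494, minus strand), had 146.0, 153.1 and 147.1 CPM in the knockdown libraries. The control libraries had 162.4, 174.4 and 158.7 CPM, all above the knockdown. On the log2 scale SRSF7 stood at -0.15 (SE 0.05, edgeR adjusted p = 0.0265). The call was lost without control 2 (edgeR adjusted p = 0.0519), without knockdown 1 (0.109) and without knockdown 3 (0.0976).

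SRSF9 encodes a smaller SR protein that acts on splice site choice (chr12:120461668-120469793, minus strand). It had 89.23, 92.02 and 94.54 CPM in the knockdown libraries, against 103.0, 116.8 and 95.59 CPM in the control libraries. The groups were separated only by the gap between knockdown 3 and control 3. Its log2 fold change was -0.19 (SE 0.06, edgeR adjusted p = 0.0339). It was called without control 3 but in none of the other 5 fits that leave out 1 library (edgeR adjusted p = 0.0616 to 0.125). Of its exon bases in GENCODE 29, 46.2% lie in GATC on the opposite strand. The deposited counting used no strand, so read pairs that fit both genes are left out by default. GATC had 23.7 ± 0.425 CPM in the knockdown and 22.8 ± 0.297 CPM in the control (SD, n = 3 each), and did not pass (edgeR adjusted p = 0.624).

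The other 7 tested SR protein genes did not pass, with log2 fold changes of -0.08 to 0.11 and edgeR adjusted p of 0.174 to 0.695. None of them had an unadjusted p of at most 0.05. SRSF2 (SC35), the classical marker of nuclear speckles, had 223.1, 213.8 and 215.0 CPM in the knockdown libraries, against 220.5, 234.9 and 234.6 CPM in the control libraries. SRSF6 had 143.7, 147.2 and 141.1 CPM, against 143.9, 149.1 and 163.1 CPM in the control libraries. SRSF10, whose protein acts as a general repressor of splicing when dephosphorylated, had 131.9, 140.2 and 135.3 CPM, against 136.5, 147.9 and 142.9 CPM in the control libraries. For each of the 3 the groups overlapped.

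SRSF1, among the first SR proteins described, had a log2 fold change of -0.07, as did SRSF4 (-0.07), while SRSF5 stood at -0.03 and SRSF8, a retrogene related to SRSF2, at 0.11. Their 95% intervals lay within -0.19 to 0.29, so changes of up to about 1.22-fold upwards were not excluded for SRSF8, the tested SR gene of lowest count. Of the 11 tested SR protein genes, 9 had a negative log2 fold change, and their median was -0.07, beside 0.00 for all tested genes. SRSF1 shares 60.7% and SRSF2 36.7% of exon bases with another gene. For SRSF1 56.6% are shared on the same strand, and for SRSF2 the other gene is chiefly MFSD11 on the opposite strand. Read pairs that fit a member and such a gene are left out by default. MFSD11 was lower in the knockdown (36.5 CPM in the knockdown and 45.7 CPM in the control, edgeR adjusted p = 0.0017).

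**Figure D2:**
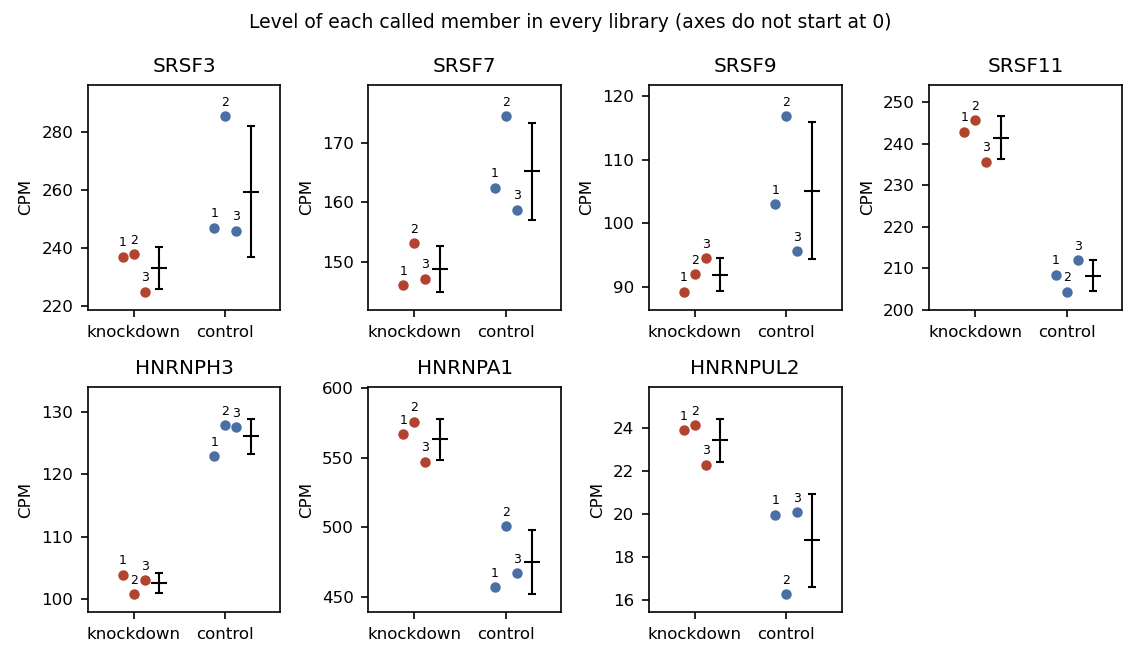
TMM-scaled CPM of the 7 called members in each library (points, numbered by replicate), with the mean and SD of each group; axes do not start at 0. The groups are separate in all 7 panels, and control 2 is the highest control for SRSF3 (285.5 CPM), SRSF7, SRSF9, HNRNPA1 and HNRNPH3.

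HNRNPA1 encodes the hnRNP best known for binding exonic silencers and for opposing SRSF1 in the choice of 5′ splice sites (chr12:54280193-54287088, plus strand). It had 567.2, 576.1 and 547.3 CPM in the knockdown libraries, against 457.0, 500.9 and 467.2 CPM in the control libraries. All 3 knockdown libraries lay above all 3 controls. The log2 fold change was 0.25 (SE 0.04, edgeR adjusted p = 0.000245), and HNRNPA1 was called in all 6 fits that leave out 1 library (adjusted p of at most 0.00398 under all settings tried, by edgeR, DESeq2 and limma). The table lists 76 rows with its name as a stem, of which 23 had counts, together 5.03% of its own 55276 counts. Summed with these copies, HNRNPA1 had 592.2 ± 15.4 CPM in the knockdown and 498.4 ± 22.0 CPM in the control (SD, n = 3 each), so that the log2 fold change was 0.25 with SE 0.04 (edgeR adjusted p = 0.000177). Read pairs with several placements were left out of the deposited counts by default, so reads that fit several copies equally are missing from both.

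HNRNPUL2, a protein related to hnRNP U that takes part in the response to DNA double-strand breaks (chr11:62712630-62727472, minus strand), was the other hnRNP gene that rose. It had 23.91, 24.14 and 22.31 CPM in the knockdown libraries, against 19.98, 16.30 and 20.11 CPM in the control libraries. The groups did not overlap, and control 2 was the lowest library. Its log2 fold change was 0.31 (SE 0.09, edgeR adjusted p = 0.018). The call was lost without control 2 (edgeR adjusted p = 0.0641), without knockdown 1 (0.0632) and without knockdown 2 (0.0723). A readthrough gene, HNRNPUL2-BSCL2, shares 44.1% of its exon bases on the same strand, where read pairs that fit both genes are left out by default, and the readthrough gene had 6 counts over all libraries.

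HNRNPH3, of the H/F group whose members bind runs of guanine near splice sites, was the hnRNP gene that fell (chr10:68331174-68343191, plus strand). It had 103.9, 100.8 and 103.0 CPM in the knockdown libraries, against 122.9, 127.9 and 127.6 CPM in the control libraries. The gap between the groups was several times the spread within each of them. The log2 fold change was -0.30 (SE 0.05, edgeR adjusted p = 0.000112), and HNRNPH3 was called in all 6 fits that leave out 1 library. The other tested genes of the H/F group were not called. HNRNPH1 had a log2 fold change of 0.05 and HNRNPF of 0.05. HNRNPH2 had 83.02, 86.21 and 81.26 CPM in the knockdown libraries, against 76.99, 78.92 and 74.68 CPM in the control libraries. Its groups did not overlap, and the log2 fold change was 0.12 (SE 0.05), with an edgeR adjusted p = 0.0943.

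The 18 hnRNP genes that did not pass had log2 fold changes of -0.11 to 0.32, with edgeR adjusted p of 0.0943 to 0.89. HNRNPA2B1, which encodes the A2 and B1 proteins, had 982.6, 1025 and 992.8 CPM in the knockdown libraries, against 1024, 1120 and 1002 CPM in the control libraries. HNRNPK, a poly-C binding protein with KH domains, had 757.2, 757.7 and 760.5 CPM, against 728.3, 724.4 and 758.6 CPM in the control libraries. HNRNPU, also known as scaffold attachment factor A, had 571.3, 561.0 and 561.9 CPM, against 527.0, 582.9 and 538.3 CPM in the control libraries. In each of these abundant genes the groups overlapped, and the log2 fold changes were -0.07, 0.04 and 0.04 in that order.

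Of the remaining hnRNP genes, HNRNPC, which competes with U2AF for uridine tracts, stood at 0.06 on the log2 scale and HNRNPL, which binds CA repeats, at -0.01. HNRNPD (AUF1), which promotes decay of mRNAs with AU-rich elements, stood at -0.05 and its relative HNRNPDL at -0.09. HNRNPA3 (-0.09), HNRNPAB (-0.05), HNRNPUL1 (-0.06), HNRNPR (0.04) and HNRNPA0 (0.03) were as close to 0. An unadjusted p under 0.05 was found for 3 of the 18, HNRNPH2, HNRNPM (log2 fold change -0.11) and HNRNPA1L3 (0.32). HNRNPLL, known for repressing exons of CD45 in T cells, stood at 0.17 (edgeR adjusted p = 0.151). The widest interval was that of HNRNPA1L3, a gene of low count named for its likeness to HNRNPA1, and reached 0.63. Of the 21 tested hnRNP genes, 12 had a positive and 9 a negative log2 fold change, with a median of 0.04.

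The 7 members that did not pass the filter had at most 6 counts over all 6 libraries. SRSF12 had 1, 4 and 0 counts in the knockdown libraries, against 0, 0 and 1 in the control libraries. HNRNPUL2-BSCL2 had 0, 1 and 2 counts, against 0, 0 and 3 in the control libraries. HNRNPA1L2 and the HNRNPC-like genes HNRNPCL1, HNRNPCL2, HNRNPCL3 and HNRNPCL4 had 0 counts, where a count of 0 allows up to 0.14 to 0.219 CPM by library. Read pairs with several placements were not counted, so a gene listed at 0 is not shown to be silent.

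Per kilobase of exon, the members spanned a wide range of levels. As means over the 6 libraries, HNRNPK stood highest at 146.2 RPKM (read pairs per kilobase of exon, scaled as CPM), followed by HNRNPA2B1 (110.6 RPKM), HNRNPF (105.9 RPKM), HNRNPA1 (102.0 RPKM) and HNRNPAB (101.5 RPKM). SRSF2 was the highest SR protein gene at 74.1 RPKM. The called SR protein genes lay lower, with SRSF7 at 38.8 RPKM, SRSF3 at 34.6 RPKM, SRSF11 at 26.5 RPKM and SRSF9 at 26.3 RPKM. HNRNPH3 stood at 21.3 RPKM, and HNRNPUL2 and HNRNPA1L3 were lowest of the tested members, both at 3.90 RPKM. Pairs that fit HNRNPUL2 and its readthrough gene, or HNRNPA1L3 and another copy of HNRNPA1, are left out by default. Lengths were summed over all GENCODE 29 exons of a gene, so levels of genes with many rare exons are understated.

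Summed over the tested members, SR protein genes had 1526.7, 1556.7 and 1511.4 CPM in the knockdown libraries, against 1540.1, 1654.9 and 1579.1 CPM in the control libraries. The hnRNP genes had 6484.8, 6619.3 and 6459.3 CPM in the knockdown libraries, against 6330.7, 6771.2 and 6353.6 CPM in the control libraries. The groups overlapped for both sums. The SR sum averaged 1532 ± 23.0 CPM in the knockdown and 1591 ± 58.4 CPM in the control, and the hnRNP sum 6521 ± 86.0 CPM and 6485 ± 248 CPM (SD, n = 3 each).

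The ratio of the hnRNP sum to the SR sum within a library was steadier than either sum. It was 4.248, 4.252 and 4.274 in the knockdown libraries, against 4.111, 4.092 and 4.024 in the control libraries, and the groups did not overlap. The means were 4.258 ± 0.014 in the knockdown and 4.076 ± 0.046 in the control (SD, n = 3 each), a difference of 0.182. Without HNRNPA1 the ratio was 3.876, 3.882 and 3.911 in the knockdown libraries, against 3.814, 3.789 and 3.728 in the control libraries. The groups then still did not overlap, with a difference of 0.113. With each single library left out, the difference ran from 0.156 to 0.200. Within the SR sum, SRSF11 made up 15.8% in the knockdown and 13.1% in the control, and SRSF3 15.2% and 16.3%. Within the hnRNP sum, HNRNPA1 made up 8.64% in the knockdown and 7.32% in the control.

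**Figure D3:**
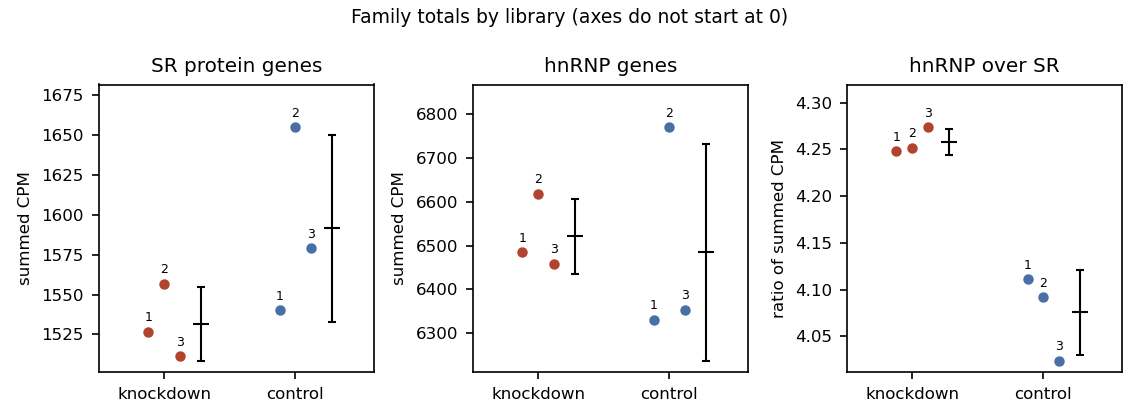
Summed TMM-scaled CPM of the tested SR protein genes (left), of the tested hnRNP genes (middle) and their ratio (right) in each library, numbered by replicate, with the mean and SD of each group; axes do not start at 0. The sums overlap between groups, control 2 is highest in both sums, and the ratio is 4.248 to 4.274 in the knockdown and 4.024 to 4.111 in the control.

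Control 2 stood apart among the controls, for these genes and for genes at large. Over genes at large, the chi-square per degree of freedom was 5.25 between controls 1 and 2 and 6.23 between controls 2 and 3. Between controls 1 and 3 it was 2.67. Control 2 was the highest control library for 24 of 32 tested members (75.0%), 8 SR protein genes and 16 hnRNP genes, against 37.9% of all tested genes. It was also the library of lowest depth. Without it 5 members were called: HNRNPA1, SRSF11 and HNRNPH3 as before, and in addition HNRNPH2 and HNRNPLL, while SRSF3, SRSF7, SRSF9 and HNRNPUL2 were not. Left out 1 library at a time, the fits called 3 to 8 members, with HNRNPM lower in addition without control 3 and HNRNPA1L3 higher without knockdown 3. HNRNPA1, SRSF11 and HNRNPH3 were called in all 6. The member counts are not set beside the share of all tested genes called in the same fits. They are a description and do not show a trait of these genes. The median log2 fold change of SR protein genes ran from -0.11 to -0.04 over these fits and that of hnRNP genes from 0.01 to 0.04.

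**Figure D4:**
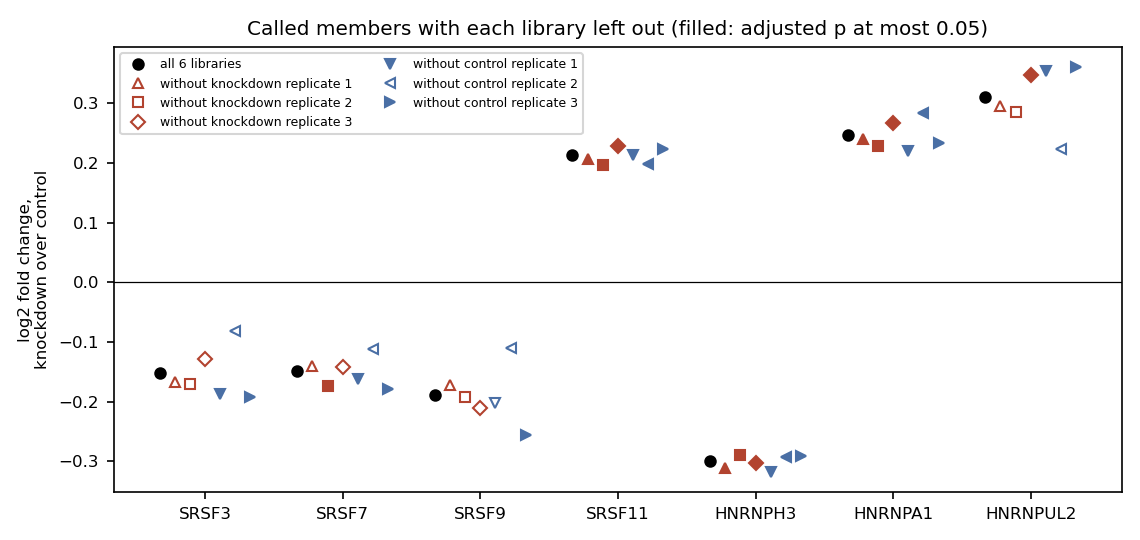
Log2 fold change, knockdown over control, of the 7 called members with all libraries (black) and with each library left out in turn; filled symbols have an edgeR adjusted p of at most 0.05. SRSF11, HNRNPA1 and HNRNPH3 stay filled throughout, and SRSF3 moves from -0.15 with all libraries to -0.08 without control 2.

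Kinases phosphorylate the arginine and serine repeats of SR proteins and so set their place in the nucleus, and transportins import SR proteins and hnRNPs. In the lists that follow, a signed or unsigned number in brackets after a gene is its log2 fold change, knockdown over control, and medians are medians of these. Of 15 tested genes for SR kinases, phosphatase partners and importers, 5 were higher, 1 was lower and 9 did not pass, with a median log2 fold change of 0.01. Over all tested genes 27.4% were called and 14% were higher, and with 6 calls among 15 genes the list's share is a description. SRPK1, the cytoplasmic kinase of SR proteins, had 36.74, 38.79 and 41.35 CPM in the knockdown libraries, against 32.36, 27.26 and 32.01 CPM in the control libraries (log2 fold change 0.35, SE 0.08, edgeR adjusted p = 0.00285). PRPF4B, a kinase of the spliceosome, had 81.1 ± 1.80 CPM in the knockdown and 65.9 ± 1.68 CPM in the control (SD, n = 3 each). DYRK1A and DYRK1B, nuclear kinases of which the first is found in speckles, had log2 fold changes of 0.25 and 0.32. These 4 kinases were called in all 6 fits that leave out 1 library. The gene that fell was PPP1CC, a catalytic subunit of protein phosphatase 1, at -0.20 on the log2 scale (edgeR adjusted p = 0.00494), named after its values were seen. CLK2 had too few counts to test (4 over all libraries), which does not show it to be silent.

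Of 27 SR-like splicing activators 4 were higher, 2 were lower and 21 did not pass (22.2% called, beside 27.4% of all genes), with a median of 0.08. SRRM2, a scaffold of nuclear speckles, had 585.6, 562.9 and 598.9 CPM in the knockdown libraries, against 502.0, 464.1 and 491.0 CPM in the control libraries (log2 fold change 0.26, edgeR adjusted p = 0.000112). U2AF2, the subunit of U2AF that binds the polypyrimidine tract, had 284.3 ± 7.06 CPM in the knockdown and 233.1 ± 13.3 CPM in the control (SD, n = 3 each). RBM39 was also higher (0.20), and all 3 were called with each library left out. SCAF1 was lower (-0.16, edgeR adjusted p = 0.0213) but was called in only 2 of the 6 fits.

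Among 17 tested rows for proteins of the hnRNP complex that carry other symbols, 4 were higher, 3 were lower and 10 did not pass. The share called was 41.2%, beside 27.4% of all genes, and the median was 0.08. With so few genes this share is a description. KHSRP, which promotes decay of mRNAs with AU-rich elements, had 350.8, 348.1 and 363.6 CPM in the knockdown libraries, against 298.8, 272.4 and 289.3 CPM in the control libraries (log2 fold change 0.30, edgeR adjusted p = 4.45e-05). ELAVL1 (HuR), which stabilises such mRNAs, was higher too (0.23), and both were called with each library left out. RBMX (hnRNP G) was lower (-0.15) and PTBP3 higher (0.14), and these were called in 2 and 3 of the 6 fits. TAF15 and RALYL had too few counts to test (18 and 1 over all libraries), which does not show them to be silent.

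Of 18 tested tissue-type splicing regulators 4 were higher, 1 was lower and 13 did not pass. The share called was 27.8%, beside 27.4% of all genes, and the median was 0.10. RBM47 had 126.6 ± 3.21 CPM in the knockdown and 96.3 ± 4.76 CPM in the control (SD, n = 3 each; log2 fold change 0.40, edgeR adjusted p = 1.55e-05). RBM24, known from muscle splicing, was higher as well (0.45), and both were called with each library left out. RBFOX3 (0.85) and RBM5 (-0.22) were not called without knockdown 3 (edgeR adjusted p = 0.0784 and 0.052).

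For the lists of the spliceosome core, the shares called rest on few genes and are descriptions. Of 18 tested snRNP core proteins 1 was higher, 2 were lower and 15 did not pass (16.7% called, beside 27.4% of all genes), with a median of -0.11. LSM5 (-0.31) was not called without knockdown 3, SNRNP70 (0.17) was called in 1 of the 6 fits and SNRPB (-0.16) in 2. Of 34 tested spliceosome subunits 4 were higher, 4 were lower and 26 did not pass (23.5% called), with a median of -0.04. PRPF8 and DHX16 had too few counts to test, 12 and 18 over all libraries. So had LSM2 and SNRPN of the snRNP list, with 1 and 0. Such low counts do not show a gene to be silent. The helicase gene DHX8 was higher (0.27, edgeR adjusted p = 0.0002), and PRPF38A (-0.29), the SF3b subunit gene PHF5A (-0.32) and the SF3a subunit gene SF3A3 (-0.19) were lower, each with every library left out in turn.

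Nonsense-mediated decay, which removes the unproductive isoforms of SR and hnRNP transcripts, had 17 tested genes together with the exon junction complex. Of these 3 were higher, 1 was lower and 13 did not pass (23.5% called), with a median of 0.01. DHX34, a helicase that acts in this decay, had 49.28, 47.04 and 49.49 CPM in the knockdown libraries, against 39.19, 39.53 and 37.87 CPM in the control libraries. Every knockdown library lay above every control library, with a change of 0.32 on the log2 scale (SE 0.06, edgeR adjusted p = 0.000831), and DHX34 was called in every fit that leaves out 1 library. SMG1, the kinase of UPF1, was higher (0.18) but was not called without knockdown 3 (edgeR adjusted p = 0.0504). UPF3B (-0.31) was called in 2 of the 6 fits. Over the 7 lists 39 of 146 tested genes were called (26.7%), close to the 27.4% of all genes, and 20 of the 39 were called with each library left out.

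**Figure D5:**
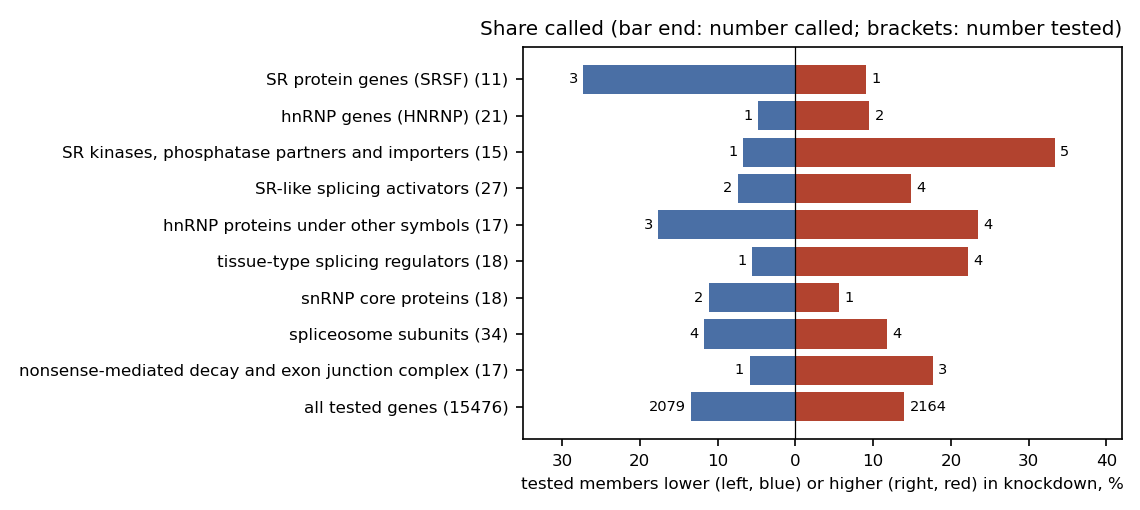
Share of tested genes called lower (left, blue) and higher (right, red) in the knockdown at an edgeR adjusted p of at most 0.05, for SR protein genes, hnRNP genes, the 7 other lists and all 15476 tested genes; numbers at the bar ends are genes called. SR protein genes show 3 of 11 lower and 1 higher, and the kinase and importer list 5 of 15 higher and 1 lower.

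Some members lie near each other in the genome. HNRNPLL and SRSF7 are 140 kb apart on chromosome 2, with log2 fold changes of 0.17 and -0.15. HNRNPR and SRSF10 are 620 kb apart on chromosome 1 (0.04 and -0.07), and HNRNPD and HNRNPDL 48.1 kb apart on chromosome 4 (-0.05 and -0.09).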

How the data were processed

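RNA sequencing counts of 3 PTPRZ1 knockdown and 3 control libraries of A498 cells were analysed, with groups and replicate numbers from the labels. The values the authors deposited are raw counts of read pairs for each gene. Per the file headers, featureCounts 2.0.1 counted pairs over exons by gene ID of the Ensembl GRCh38 annotation, release 107, with no strand option and none for pairs with several placements. Per the labels' protocols the library kit was directional. The build is hg38 per the submitters' processing notes, with the aligner version not given in the sources used here. Strand was therefore not used to tell apart genes that overlap on opposite strands. Read pairs that fit exons of both genes are left out by default, as on the same strand.

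Of the rows, 42054 took their symbol from a table of gene names and 16371 from GENCODE 29. Coordinates, exon lengths and overlaps are those of GENCODE 29. The test was that of edgeR 4.0.16 under R 4.3.3 (filterByExpr, TMM, glmQLFit and glmQLFTest, 2-sided, Benjamini-Hochberg over 15476 genes with 99.82% of counts). CPM is scaled by TMM. Marker CPM and the limit given for uncounted members use the unscaled total of each library instead. The coefficient of variation beyond counting was 5.53%. Replicate libraries differed beyond counting error (chi-square per degree of freedom 2.19 to 6.23), so none was merged. The comparison was also run on simulated data with larger planted changes than those of the called members, and no result here rests on that run. Alternatives used DESeq2 1.42.0, limma 3.58.1 (voom), other scalings and filters, a replicate block and fits without single libraries.

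The members, gene lists and tests were chosen with earlier results of these data known. Text names each called member, the 3 uncalled members of highest mean CPM per family, at most 4 called genes of smallest p per other list, PTPRZ1 and RNF26. Other members are named so that each is accounted for. A gene that meets this rule is not reported here. Names beyond it were chosen after the values were seen.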

Additional observations from a re-analysis of the deposited data

How the results depend on the processing

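The same 7 members were called by edgeR with TMM, RLE or upper-quartile scaling, with no filter or a mean of at least 5 CPM, by DESeq2 and by limma-voom. Under the settings tried, no direction reversed for the 7 called members, the 3 uncalled members of highest mean CPM in each family or the family medians. The other uncalled members, several of them near 0, were not followed across settings. HNRNPA1, SRSF11 and HNRNPH3 were called under every setting. Leaving out 1 library at a time, SR protein genes called lower ran from 0 to 3, hnRNP genes called lower from 1 to 2 and hnRNP genes called higher from 1 to 3. Fewer libraries enter those fits, and why the calls differ between libraries was not tested. Member counts in fits that leave out libraries are not set beside the share of all tested genes called there. They are a description and do not show a trait of these genes. Without both control 2 and knockdown 2, 1 SR protein gene was lower, and HNRNPU became higher (log2 fold change 0.09, edgeR adjusted p = 0.0458). Without members that have a copy of the same stem, which leaves fewer genes, 1 SR protein gene was lower, 1 hnRNP gene higher and 0 lower. As alternatives chosen after seeing the data, leaving out members with over 30% of exon bases in another gene left 1 hnRNP gene higher, and the ratio of the hnRNP to the SR sum differed by 0.113 without HNRNPA1, against 0.182 with it. Same-numbered libraries correlated by 0.0226 to 0.0333 in their deviations from group means, under the 0.1 needed to take the numbers as pairs, though each library correlated best with its own number. With the replicate block, 4101 genes were called over all tested genes, against 4243 without it, and the same 7 members. DESeq2 called 3755 genes and limma-voom 4248. With 3 libraries a group, standard errors of members ran from 0.0345 to 0.146 on the log2 scale, which limits what could be called among genes of low count.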
